A study of Mus musculus with 6 samples.

Results

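The genes described here are 10 protein-coding genes that lie near Mettl5 on mouse chromosome 2, chosen by name for their position: Bbs5, Fastkd1, Ppig, Phospho2, Klhl23, Ssb, Ubr3, Tlk1, Mettl8 and Dcaf17. All 10 were found, out of 18491 genes measured. Messenger RNA from the brain of inbred C57BL/6N mice was sequenced at postnatal day 28 in 3 libraries labelled wild type and 3 labelled Mettl5-/-, called knockout here. Both groups share strain, tissue and age, and no other allele or treatment is named in the labels. The sources used here do not give how the knockout allele was built, which exons it removes or whether any part of a targeting cassette remains.

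Mettl5 encodes the methyltransferase that places N6-methyladenosine on the RNA of the small ribosomal subunit. A mutation made in one gene can also change the genes beside it, through a lost regulatory element, an overlapping transcript or flanking DNA of another strain, which is why neighbours are a usual check of an edited allele. The question put to these genes is whether their messenger RNA differed where Mettl5 was disrupted. Their products have unrelated tasks, from RNA binding (Ssb) and ubiquitin ligation (Ubr3) to ciliary transport (Bbs5).

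Along the chromosome, in GRCm38 coordinates from RefSeq, the members formed a close group on the lower side of Mettl5 and a more spread group on the higher side. Mettl5 itself spans chr2:69871195-69886634. Ssb overlaps its end, and Klhl23, Phospho2, Ppig, Fastkd1 and Bbs5 follow at gaps of 34.5, 74.0, 117, 159 and 204 kb. On the other side Ubr3 begins after a gap of 10.3 kb, and Tlk1, Mettl8 and Dcaf17 lie 826, 1078 and 1169 kb away. In the GENCODE annotation, Mettl5, Fastkd1, Tlk1 and Mettl8 are read from the minus strand and the other 7 genes from the plus strand.

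Levels are in FPKM, the fragments of a gene per kilobase of its transcript scaled by the number of fragments mapped. Differences are knockout minus wild type of log2(FPKM + 1), and this scale makes changes of weakly expressed genes look smaller. They were tested with limma, a linear model that shares information on spread between genes, over the 12885 genes whose mean reached 1 FPKM, followed by Benjamini-Hochberg adjustment over all of them. All 10 members passed that filter. No label states that each library is a separate animal, so the p-values rest on how far these libraries differ within a genotype, a spread that may be only technical.

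No neighbour passed the adjusted threshold of 0.05, while Phospho2 alone was lower in every knockout library than in any wild-type library. Of all genes tested, 0% had an adjusted p under 0.05, so the 0 of 10 among the members says nothing particular about them. At an unadjusted p under 0.05 there was 1 member, Phospho2, against 6.05% of all genes tested (3.69% in the lower and 2.37% in the higher direction). The genotypes did not overlap in 1 of 10 members, again Phospho2, against 11.9% of all genes tested (6.43% in the lower and 5.48% in the higher direction). These shares are near the background. Of the 10 members, 9 had a higher mean log2 value in the knockout, most by small amounts, against 6326 of all 12885 genes tested. The median difference over the members was 0.066 against -0.0032 over all genes tested. The members' median was 0.027 without knockout library 1.

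**Figure D1:**
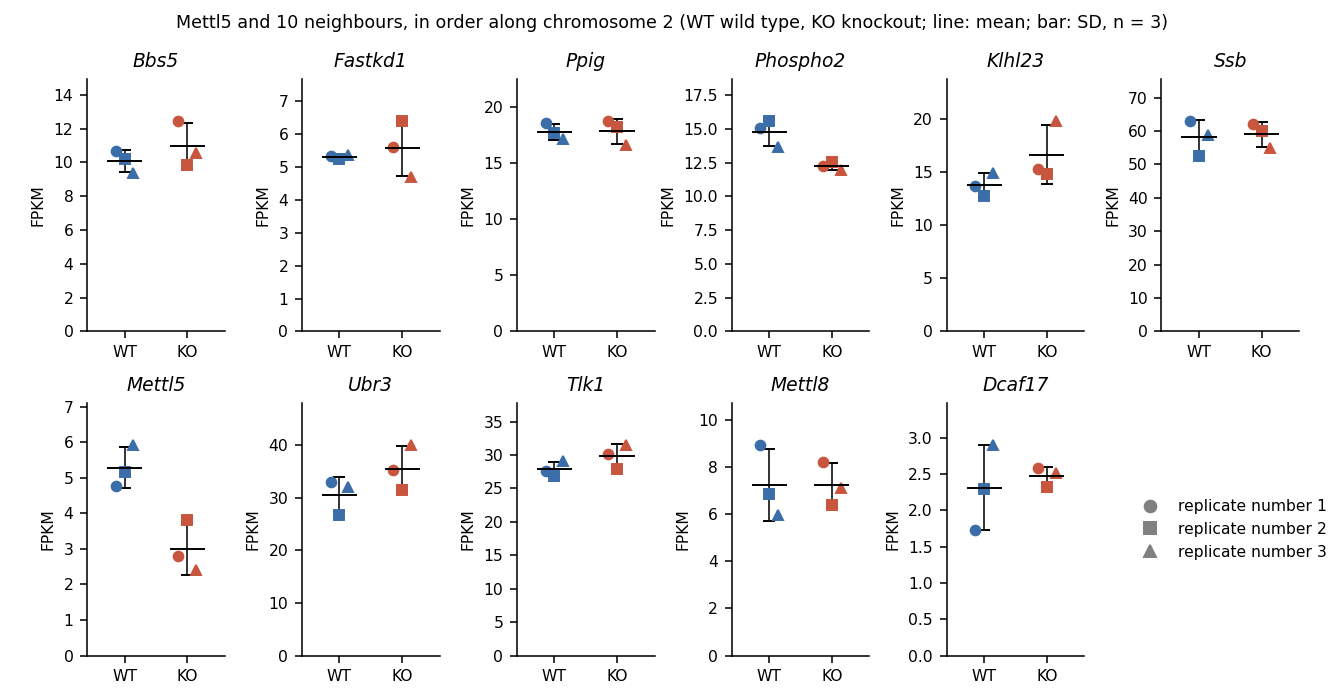
FPKM (vertical axes, starting at 0) of Mettl5 and its 10 neighbours in each library, in order along chromosome 2, with the mean as a line and the SD as a bar (n = 3 per genotype) and the marker shape giving the replicate number. Mettl5 and Phospho2 are the 2 panels in which all knockout points lie below all wild-type points.

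The edited gene was itself lower in the knockout libraries but still measured in each of them. Mettl5 was at 4.78, 5.16 and 5.92 FPKM in wild-type libraries 1, 2 and 3 and at 2.79, 3.81 and 2.40 FPKM in knockout libraries 1, 2 and 3. The knockout values were all below the wild-type values, with a difference of -0.66 (SE 0.15) and a limma adjusted p of 0.79. Measured within each library against the median of its 10 neighbours, Mettl5 stood at -1.41, -1.29 and -1.14 on the log2 scale in the wild type and at -1.96, -1.61 and -2.15 in the knockout. The knockout minus wild-type difference of that relative level was -0.62. A 2-sided exact permutation of 3 against 3 gave p = 0.1, the smallest that unpaired groups of this size allow. With the libraries paired by replicate number, an exact sign-flip test gave p = 0.25, the smallest that 3 pairs allow. The difference of Mettl5 was thus of similar size against the 10 neighbours (-0.62) and without a reference gene (-0.66). Against the 2 nearest members, Ssb and Ubr3, it was larger, at -0.78.

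Ssb, the gene that overlaps Mettl5, was the most abundant member and was nearly level between the genotypes. It encodes the La protein, which binds the uridine-rich ends of new RNA polymerase III transcripts. Ssb was at 62.98, 52.47 and 58.80 FPKM in wild-type libraries 1, 2 and 3 and at 62.01, 60.05 and 54.88 FPKM in knockout libraries 1, 2 and 3. The genotypes overlapped fully, with the highest and the lowest value both in the wild type. The difference was 0.024 (SE 0.099, 95% interval -0.21 to 0.25), with a limma adjusted p of 0.978. A change of a size within that interval is not excluded by these samples.

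The 2 genes run toward each other and share sequence at their ends. In GENCODE transcripts matched to the deposited accessions, 169 exonic bases lie in both genes, which is 17.5% of the 968 exonic bases of Mettl5 and 8.09% of the 2088 of Ssb. Of those, 86 are coding in Mettl5 and 10 are coding in Ssb. The sources used here do not say whether counting used strand, so fragments from this stretch cannot be assigned to one gene with certainty. Ssb was the higher of the pair by mean FPKM, at 58.1 ± 5.3 in the wild type and 59.0 ± 3.7 in the knockout against 5.29 ± 0.58 and 3.0 ± 0.73 for Mettl5 (SD, n = 3 each). GENCODE also places Gm13625, a processed transcript on the same strand as Mettl5, over 791 bases of the Mettl5 gene and 435 of the Ssb gene. Strand alone would not set its fragments apart from those of Mettl5. The part of fragments from either overlap in the Mettl5 signal that remained in the knockout was not tested.

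Ubr3, the next gene on the other side, had a higher mean in the knockout without separating the genotypes. It encodes an E3 ubiquitin ligase of the UBR family. Its values were 32.99, 26.79 and 31.97 FPKM in wild-type libraries 1, 2 and 3 and 35.20, 31.44 and 40.03 FPKM in knockout libraries 1, 2 and 3. Knockout library 2 fell inside the wild-type range and the other two lay above it. The difference was 0.21 (SE 0.12; 95% interval -0.071 to 0.49), with a limma adjusted p of 0.798. Without knockout library 3 it was 0.12.

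Phospho2 was the neighbour with the lowest unadjusted p, on the lower side. It encodes a phosphatase whose human counterpart acts on pyridoxal 5'-phosphate, the active form of vitamin B6. Phospho2 was at 15.10, 15.59 and 13.64 FPKM in wild-type libraries 1, 2 and 3 and at 12.25, 12.57 and 11.93 FPKM in knockout libraries 1, 2 and 3. The knockout libraries lay close together and all below the lowest wild-type library. Phospho2 averaged 14.8 ± 1.0 FPKM in wild-type and 12.25 ± 0.32 FPKM in knockout libraries (SD, n = 3 each), a ratio of 0.829. The difference was -0.25 (SE 0.085; 95% interval -0.45 to -0.053), with a limma unadjusted p of 0.0194 and an adjusted p of 0.79. By unadjusted p Phospho2 ranked 272 of the 12885 genes tested and Mettl5 ranked 16. A 2-sided exact permutation of the FPKM values gave p = 0.1, the smallest possible with 3 against 3. Leaving out wild-type library 1 or 2 raised the unadjusted limma p to 0.0554 or 0.0661, and leaving out knockout library 1 or 3 raised it to 0.0535 or 0.0547. Over the 6 single omissions the difference ran from -0.30 to -0.21.

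Klhl23, which lies between Phospho2 and Ssb, differed in the opposite direction. It belongs to the kelch-like family, many of whose members bring substrates to CUL3 ubiquitin ligases. Klhl23 was at 13.69, 12.73 and 14.96 FPKM in wild-type libraries 1, 2 and 3 and at 15.26, 14.83 and 19.83 FPKM in knockout libraries 1, 2 and 3. Knockout library 2 was just below wild-type library 3, so the genotypes overlapped by that one pair, and knockout library 3 stood above all others. The difference was 0.25 (SE 0.13; 95% interval -0.047 to 0.54), with a limma adjusted p of 0.79. Without knockout library 3 it was 0.12.

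The promoters of the 2 genes that were lower in every knockout library are shown because these were the only genes within 2 Mb whose genotypes did not overlap. RefSeq promoter windows of GRCm38.p6 run from 250 bases before to 50 bases after a transcript start, and were found for all 11 genes including Mettl5. Klhl23 and Tlk1 had more than 1 window. The start used need not be the outermost of a gene, and the Mettl5 window lies inside the gene span given above. The capitals mark CCGGAAGT or its reverse complement ACTTCCGG, the letters of a strong ETS factor site, and TGACGTCA, the cAMP response element, with 1 base common to both in Phospho2. The Mettl5 window is chr2:69885566-69885865 on the minus strand, and the Phospho2 window is chr2:69789487-69789786 on the plus strand, each written in the direction of its gene.
Mettl5: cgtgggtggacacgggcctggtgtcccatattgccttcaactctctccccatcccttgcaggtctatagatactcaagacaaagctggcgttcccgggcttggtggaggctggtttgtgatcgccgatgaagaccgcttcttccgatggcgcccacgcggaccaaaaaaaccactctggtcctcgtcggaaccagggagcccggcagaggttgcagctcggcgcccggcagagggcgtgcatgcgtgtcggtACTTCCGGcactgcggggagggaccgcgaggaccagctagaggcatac
Phospho2: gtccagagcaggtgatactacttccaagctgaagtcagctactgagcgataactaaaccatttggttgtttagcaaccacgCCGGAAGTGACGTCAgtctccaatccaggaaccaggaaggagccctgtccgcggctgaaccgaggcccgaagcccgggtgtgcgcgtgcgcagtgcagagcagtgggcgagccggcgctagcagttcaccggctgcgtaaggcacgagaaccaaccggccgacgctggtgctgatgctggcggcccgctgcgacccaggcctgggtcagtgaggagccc

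Of the 11 genes, 2 held the ETS letters on either strand, Mettl5 and Phospho2, and 1 held the cAMP response element letters. Over 32851 promoter windows of the same length, 3.89% held the ETS letters and 1.79% the cAMP response element letters. Of 4 further motifs searched on both strands, the GC box GGGGCGGGG was found in Ubr3, Dcaf17 and Mettl8 (11.4% of all windows), TATAAA in Fastkd1 and Klhl23 (13.6%), CCAAT in Phospho2 and Klhl23 (37.4%) and the NRF1 letters GCGCATGC in 0 of 11 (2.71%). The motifs were chosen after the sequences and the values had been seen. A match describes the letters only, and an absent match says only that these letters are not in the window.

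The 3 members farther out on the lower side, Ppig, Fastkd1 and Bbs5, overlapped between the genotypes. Ppig encodes a nuclear cyclophilin with an arginine-serine-rich tail, Fastkd1 a mitochondrial RNA-binding protein of the FASTK family, and Bbs5 a subunit of the BBSome, the coat that moves membrane proteins in and out of the primary cilium. Ppig was the steadiest of all members between genotypes, at 18.57, 17.63 and 17.15 FPKM in wild-type libraries 1, 2 and 3 and 18.74, 18.17 and 16.57 FPKM in knockout libraries 1, 2 and 3. Its difference was 0.0023 (SE 0.084; 95% interval -0.19 to 0.20).

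Fastkd1 was at 5.32, 5.24 and 5.37 FPKM in wild-type libraries 1, 2 and 3 and at 5.6, 6.39 and 4.70 FPKM in knockout libraries 1, 2 and 3. The wild-type values nearly coincided while the knockout values lay on both sides of them, and the difference was 0.049 (SE 0.12; 95% interval -0.22 to 0.32). Bbs5 was at 10.70, 10.19 and 9.40 FPKM in wild-type libraries 1, 2 and 3 and at 12.45, 9.82 and 10.58 FPKM in knockout libraries 1, 2 and 3. Knockout library 1 was the highest and the other two lay within the wild-type range, and the difference was 0.10 (SE 0.11; 95% interval -0.15 to 0.35), or 0.014 without knockout library 1.

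The 3 members about 1 Mb away on the higher side did not separate the genotypes either. Tlk1 encodes a tousled-like kinase that phosphorylates the histone chaperone Asf1 during DNA replication. It was at 27.58, 26.88 and 29.11 FPKM in wild-type libraries 1, 2 and 3 and at 30.08, 27.89 and 31.49 FPKM in knockout libraries 1, 2 and 3. The knockout was higher within each replicate number, but knockout library 2 fell inside the wild-type range, and the difference was 0.094 (SE 0.084; 95% interval -0.10 to 0.29), or 0.055 without knockout library 3.

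Mettl8 and Dcaf17 start next to each other and are read in opposite directions. Mettl8 encodes an RNA methyltransferase that makes 3-methylcytidine in mitochondrial transfer RNAs, and Dcaf17 encodes a substrate receptor of the CUL4-DDB1 ubiquitin ligase whose human gene is mutated in Woodhouse-Sakati syndrome. Their promoter windows share 237 bases, chr2:71055557-71055793 in GRCm38.p6, shown here because one stretch serves as the start region of 2 members. It is written on the plus strand, in the direction of Dcaf17. The capitals mark GAATTGTAG, the reverse complement of CTACAATTC, letters found within the site of ZNF143 and THAP11, which 0.356% of all promoter windows hold on either strand. Among the 11 genes only Mettl8 and Dcaf17 held it, at this one place.
Dcaf17 and Mettl8 shared stretch: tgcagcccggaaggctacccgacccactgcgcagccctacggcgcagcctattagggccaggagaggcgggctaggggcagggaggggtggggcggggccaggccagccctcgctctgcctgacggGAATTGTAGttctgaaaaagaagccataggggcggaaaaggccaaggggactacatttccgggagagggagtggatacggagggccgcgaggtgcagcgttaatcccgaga

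Mettl8 was at 8.92, 6.86 and 5.95 FPKM in wild-type libraries 1, 2 and 3 and at 8.21, 6.37 and 7.08 FPKM in knockout libraries 1, 2 and 3. Dcaf17 was at 1.73, 2.30 and 2.90 FPKM in wild-type libraries 1, 2 and 3 and at 2.58, 2.32 and 2.51 FPKM in knockout libraries 1, 2 and 3. The wild-type library with the most Mettl8 had the least Dcaf17, and the one with the least Mettl8 had the most Dcaf17. The wild-type spread of both genes was wide, with a coefficient of variation of 21.0% for Mettl8 and 25.3% for Dcaf17, and spanned the knockout values. The differences were 0.0058 (95% interval -0.35 to 0.36) and 0.083 (95% interval -0.26 to 0.43), so changes of moderate size are not excluded in this pair. Over the members other than Phospho2, the limma adjusted p lay between 0.79 and 0.998.

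**Figure D2:**
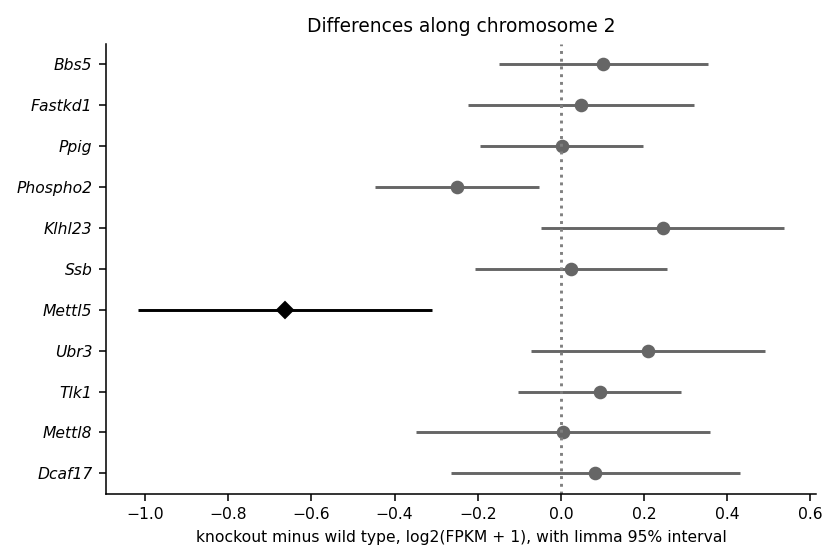
Knockout minus wild type on the log2(FPKM + 1) scale (horizontal axis) for each gene in order along chromosome 2, with limma 95% intervals; the diamond is Mettl5. The intervals of Mettl5, from -1.02 to -0.31, and of Phospho2, from -0.45 to -0.053, lie below 0, and those of the other 9 genes include it.

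By level, the members spanned from Ssb down to Dcaf17 in both genotypes. In wild-type means the order was Ssb at 58.1, Ubr3 at 30.6, Tlk1 at 27.9, Ppig at 17.8, Phospho2 at 14.8, Klhl23 at 13.8, Bbs5 at 10.1, Mettl8 at 7.24, Fastkd1 at 5.31 and Dcaf17 at 2.31 FPKM. Neighbours in that order had no overlapping wild-type libraries except Ubr3 with Tlk1 and Phospho2 with Klhl23. In the knockout Klhl23, at 16.6 ± 2.8 FPKM, moved above Phospho2 without overlap. Neighbours that overlapped in the knockout order were Ubr3 with Tlk1, Ppig with Klhl23, Phospho2 with Bbs5, and Mettl8 with Fastkd1.

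Knockout library 1 had most members on the higher side: 9 of 10 lay above their wild-type mean there, all but Phospho2. The share of all genes tested on that side in that library was not counted. The median deviation of the 10 members from their wild-type means was 0.046, -0.032 and 0.018 in wild-type libraries 1, 2 and 3 and 0.12, 0.025 and 0.025 in knockout libraries 1, 2 and 3, against 0.0039 over all genes tested in knockout library 1. Klhl23, Ubr3 and Tlk1 had their highest value in knockout library 3 and their lowest in wild-type library 2. Knockout library 3 was also the lowest of the 6 for Phospho2, Fastkd1 and Ppig.

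**Figure D3:**
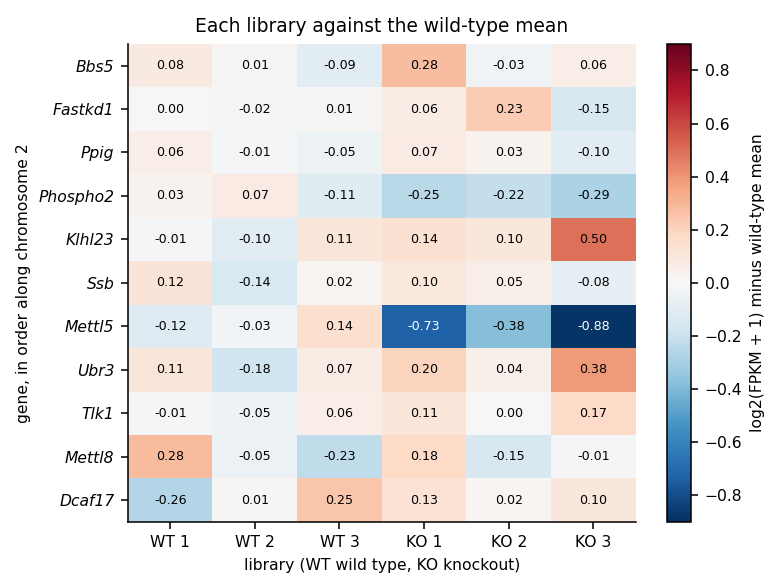
Deviation of each library from the wild-type mean on the log2(FPKM + 1) scale (colour and printed value), with genes in chromosomal order as rows and libraries as columns. Mettl5 is low in all 3 knockout libraries, down to -0.88, Phospho2 is low by smaller amounts, down to -0.29, and Klhl23 reaches 0.50 in knockout library 3.

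Knockout library 3, the library with the highest Klhl23, Ubr3 and Tlk1, stood apart in its cell-type markers. The 10 oligodendrocyte and myelin markers summed to between 6487 and 7689 FPKM in the wild type, to 5438 and 5724 FPKM in knockout libraries 1 and 2 and to 2162 FPKM in knockout library 3. Their median difference was -0.73. All 10 were lower in the knockout, against 6559 of all 12885 genes tested. The genotypes did not overlap in 9 of 10, against 11.9% of all genes tested (6.43% in the lower direction). The 7 thalamic neuron markers summed to 52.2 FPKM in knockout library 3 and to 192 and 279 FPKM in knockout libraries 1 and 2. In the wild type they summed to between 151 and 191 FPKM. Of these 7, 5 were lower and 2 higher (up to 0.54) in the knockout, with a median difference of -0.46. Genotypes without overlap numbered 0 of 7, against 11.9% of all genes tested. General neuron markers summed to between 2800 and 2998 FPKM in all libraries, but single genes of that list differed in both directions. Of its 7 genes, 3 were higher and 4 lower in the knockout, with differences from -0.47 to 0.32. Groups did not overlap in 2 of 7, 1 lower and 1 higher, against 11.9% of all genes tested. No marker of these 3 lists was at 0 in any library. The part of these marker levels in the values of the members was not tested. In whole tissue, fewer cells of a type and less RNA per cell cannot be told apart. Per-library sums over all genes ran from 350727 to 377334 FPKM.

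The limma results above left the libraries unpaired. Replicate number was then taken to pair the libraries, and the pairing bears on the neighbours. The labels do not state such pairs, so p-values that use them hold only if replicate number marks true pairs. A limma fit blocked on that number gave an unadjusted p of 0.0109 for Phospho2, 0.019 for Klhl23 and 0.0255 for Ubr3, so 3 of 10 members had an unadjusted p under 0.05, against 14.3% of all genes tested. Their adjusted p was 0.295, 0.298 and 0.311, and 0% of all genes passed the adjusted threshold. The knockout was higher within all 3 replicate numbers for 3 members, Klhl23, Ubr3 and Tlk1, against 19.5% of all genes tested. It was lower within all 3 for 1 member, Phospho2, against 20.5%. Klhl23, Ubr3 and Tlk1 had nearly the same pattern over the 6 libraries. Pearson's r of log2(FPKM + 1) was 0.90 for Ubr3 with Klhl23, 0.90 for Ubr3 with Tlk1 and 0.92 for Klhl23 with Tlk1. These 3 genes are therefore not separate observations.

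The remaining genes near Mettl5 gave no further separation. Within 0.5 Mb the table held 12 genes besides Mettl5, of which 7 are members and 9 passed the filter. Klhl41, a muscle kelch-like gene, averaged 0.97 ± 0.16 FPKM in wild-type and 1.09 ± 0.20 FPKM in knockout libraries, and Ccdc173, which starts head to head with Phospho2, 1.65 ± 0.23 and 1.57 ± 0.33 FPKM (SD, n = 3 each). Lrp2 and Myo3b were below the filter, with means of 0.05 and 0.04 FPKM for Lrp2 and 0.287 and 0.177 FPKM for Myo3b (wild type first), and Dhrs9 was at 0 in any library. The genotypes of Ccdc173 thus overlapped beside a gene, Phospho2, whose genotypes did not.

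The median difference of the genes around Mettl5 was above 0 in each window up to 5 Mb. These windows are nested and share the nearest genes, so they are not separate observations. Of all 12885 genes tested, 6326 were higher and 6559 lower in the knockout. Within 0.5 Mb, 9 genes were tested, with 7 higher and 2 lower in the knockout and a median difference of 0.049. Within 1 Mb, 14 genes were tested, with 10 higher and 4 lower in the knockout and a median difference of 0.058. Within 2 Mb, 27 genes were tested, with 18 higher and 9 lower and a median of 0.024, and the genotypes did not overlap in 1, Phospho2. Within 5 Mb, 48 genes were tested, with 26 higher and 22 lower and a median of 0.0040, which was -0.024 without knockout library 1 and 0.033 without wild-type library 3. Over chromosome 2 without Mettl5 the median was 0.0089 for 1025 genes. Of these, 13.0% had no overlap between the genotypes. The 17 tested genes within 2 Mb that are not members had a median difference of 0.0023, with 9 higher and 8 lower in the knockout. Their differences lay between -0.22 and 0.23, and none of their groups separated (0 of 17, against 11.9% of all genes tested, lowest unadjusted limma p 0.108). That lowest p belonged to Stk39, a kinase gene chosen for mention after its values were seen, which was lower within all 3 replicate numbers and had an unadjusted p of 0.0172 and an adjusted p of 0.298 in the blocked limma fit. The median absolute difference within 2 Mb was 0.070, against 0.10 over all genes tested.

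**Figure D4:**
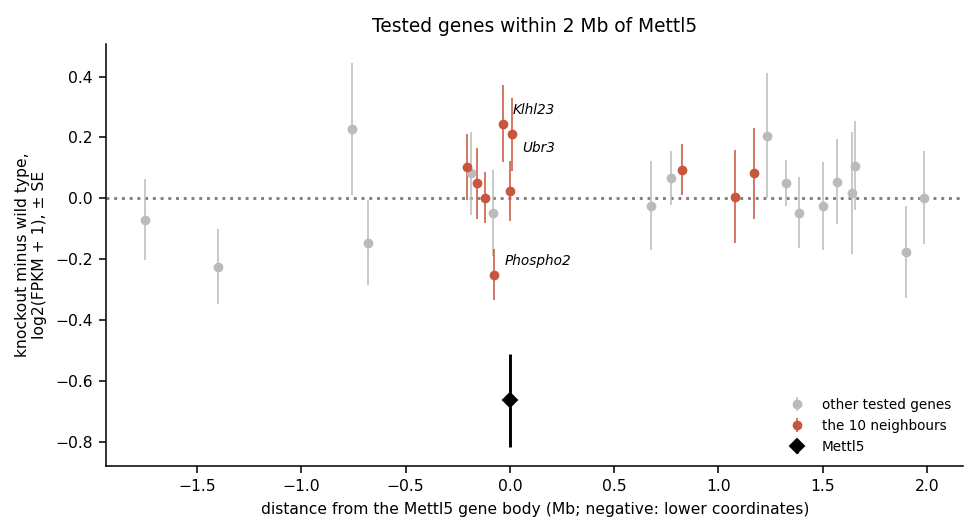
Knockout minus wild type on the log2(FPKM + 1) scale with its limma SE (vertical axis) against distance from the Mettl5 gene body in Mb (horizontal axis) for the 27 tested genes within 2 Mb and for Mettl5. Mettl5 lies at -0.66, and all other genes lie between -0.25 and 0.25 on both sides.

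Genes related to the members by family or complex, most of them on other chromosomes, were described for comparison. Of 12 Bardet-Biedl genes (the other BBSome subunits, their chaperonins, the GTPase Arl6 and Lztfl1), 10 were lower, with a median of -0.060. Over all 12885 genes tested, 6559 were lower. Mkks, a chaperonin-like assembly factor of the BBSome, averaged 8.46 ± 0.81 FPKM in wild-type and 6.42 ± 0.34 FPKM in knockout libraries, and Bbs9, a BBSome subunit, 5.10 ± 0.38 and 4.42 ± 0.21 FPKM (SD, n = 3 each), both without overlap. They were named for having the 2 lowest unadjusted limma p-values of the list, and their limma adjusted p was 0.79 and 0.799. Genotypes did not overlap in 2 of the 12 genes, against 11.9% of all genes tested. Bbs5 was on the other side of 0 from most of its partners, but the difference between them was not tested.

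Among the relatives of the remaining members, medians lay between -0.10 and 0.027. Values are given as wild-type then knockout mean, with SD and n = 3 each. The 5 FASTK family genes had a median of -0.050, with Fastkd2 at 5.70 ± 0.62 and 4.70 ± 0.17 FPKM and Fastkd3 at 4.87 ± 0.38 and 4.30 ± 0.58 FPKM. The 7 UBR ligases and their E2 partners had a median of -0.018, led by Ube2a at 19.7 ± 1.3 and 18.0 ± 1.3 FPKM and Ubr7 at 12.8 ± 0.49 and 13.4 ± 0.66 FPKM. The 6 La-motif genes had a median of 0.027, with 1 of 6 without overlap (11.9% of all genes tested). Larp4b, a binder of messenger RNA tails, was the member of that family with the lowest unadjusted p, 0.0245 in limma, at 15.2 ± 0.28 and 17.9 ± 0.85 FPKM without overlap, followed by Larp4 at 7.56 ± 0.47 and 7.93 ± 0.23 FPKM. The 15 cyclophilins had a median of -0.10, with 11 lower, against 6559 of all 12885 genes tested. Their 2 lowest unadjusted limma p-values belonged to Ppil4, at 16.3 ± 1.5 and 18.4 ± 1.6 FPKM, and Ppif, at 17.1 ± 1.5 and 15.1 ± 2.1 FPKM. None of these genes passed after adjustment (lowest limma adjusted p 0.79).

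The 19 kelch-like genes with Cul3 had a median of -0.0039, with 4 of 19 without overlap (11.9% of all genes tested), and Klhl5 was at 19.4 ± 1.9 and 15.9 ± 0.82 FPKM and Klhl9 at 27.0 ± 1.1 and 24.3 ± 0.92 FPKM. The 16 measured genes of the CUL4-DDB1 ligase had a median of 0.021, with 4 of 16 without overlap (again against 11.9%), and Dcaf15 was at 8.29 ± 0.51 and 10.65 ± 1.0 FPKM and Det1 at 1.56 ± 0.14 and 1.23 ± 0.015 FPKM. The 4 genes around transfer RNA 3-methylcytidine and mitochondrial serine charging had a median of 0.0092, with Sars2 at 5.37 ± 0.35 and 6.42 ± 1.0 FPKM and Mettl6 at 6.58 ± 0.67 and 7.0 ± 0.75 FPKM. For the Tlk1 partners, Tlk2 was at 13.7 ± 0.95 and 13.7 ± 1.0 FPKM and Asf1a at 4.78 ± 0.41 and 4.80 ± 0.32 FPKM. Phospho1, the paralogue of Phospho2, had nearly equal means of 15.4 ± 3.3 and 15.5 ± 4.2 FPKM, with a difference of -0.0039.

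The genes whose pattern over the 6 libraries was most like that of the nearest member on each side lay mostly on other chromosomes. By Pearson's r of log2(FPKM + 1), the closest to Ssb were Supt7l (0.989), Pcdhga2 (0.977) and Hhipl1 (0.977). The closest to Ubr3 were Slc6a17 (0.995), Figf (0.995) and Camk1d (0.990), of which Camk1d is on chromosome 2. These are the highest values out of all genes tested over 6 libraries and are given as a description only.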

How the data were processed

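Per the labels' protocols, polyadenylated brain RNA was selected with oligo(dT) beads, fragmented and primed with random hexamers. The deposited values are FPKM with 2 decimals, per the file headers, 1 column for each of 6 samples. Bowtie2, RSEM and the mm10 build appear in the submitters' processing notes; the sources used here give no version, annotation release or strand setting. Steps of low values were too coarse at 2 decimals to give depth, so absolute depth is unknown and no counting interval is given. Of 18491 gene IDs, 18450 matched RefSeq's GRCm38.p6 gene table, and 29 symbols were filled by ID. Strands and exons came from GENCODE vM21.

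Tests used limma 3.58.1 in R 4.3.3 (eBayes with trend and robust prior) on log2(FPKM + 1) for genes averaging 1 FPKM or more. Tests were 2-sided, adjusted by Benjamini-Hochberg and called at 0.05. The same steps were tested on simulated data. Exact permutations listed every regrouping of the libraries in Python 3.11.15 with pandas 2.3.3 and numpy 2.4.6, and figures were drawn with matplotlib 3.10.9. Alternatives covered pseudocount, filter, scaling, spread model, the replicate block and leaving out each library.

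Members, windows, gene lists and tests were chosen with earlier results of these data known. Named genes were Mettl5, the members, all genes within 0.5 Mb, up to 2 genes of lowest unadjusted p per list of relatives, and the 3 most similar genes to the nearest member on each side. Marker lists, beside those in the report, gave median differences of -0.0058 (neurons), -0.074 (astrocytes), -0.27 (microglia), 0.13 (liver and muscle, 2 tested) and -1.20 (red cells, which summed to between 11.8 and 2834 FPKM).

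The titles number both genotypes 1 to 3 without saying what the numbers mark. Deviations from the group means correlated across genes between same-numbered libraries, at 0.485, 0.413 and 0.539. Correlations between all others were negative. That is partly arithmetic, because deviations within a group sum to 0, so it adds little to the evidence for pairs. The numbers were still used as pairs in the blocked limma fit and the sign-flip test, from the data rather than the labels. Those p-values thus rest on a pairing taken from the same data that they test. The main limma fit, with its SE, intervals, p-values and ranks, and the exact permutations did not use the pairs.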

Additional observations from a re-analysis of the deposited data

How the results depend on the processing

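No member passed an adjusted p of 0.05 in limma in any setting. Phospho2, Klhl23, Ubr3, Tlk1, Bbs5 and Mettl5 kept their direction in every setting that tested them. Mettl5 could not be tested at a mean of at least 5 FPKM. Leaving out single libraries reversed the sign of values near 0: Ssb ranged from -0.046 to 0.083, Ppig from -0.033 to 0.051, Mettl8 from -0.11 to 0.15, Fastkd1 from -0.041 to 0.15 and Dcaf17 from -0.049 to 0.21. Members at an unadjusted p under 0.05 numbered 3 with the replicate block and 0 to 2 with a library left out. Over all genes, that count was 780, 1361 with array weights, 1842 with the replicate block and 315 to 1112 with a library left out. Genes without overlap numbered 2097 to 3456 with a library left out, as fewer samples overlap less often. Calls after adjustment were 1 without the filter and 0 to 1 with a library left out. The members' median difference ran from 0.027 to 0.098 with a library left out, and that of genes within 0.5 Mb from 0.010 to 0.097. The median difference within 1 Mb was 0.084 after rescaling to a common sum and 0.026 to 0.074 with a library left out. That rescaling also moved the median over all genes tested, from -0.0032 to 0.023. Within 2 Mb the median difference was 0.065 with array weights and 0.010 to 0.068 with a library left out. Within 5 Mb it was -0.024 to 0.033 with a library left out, a change of sign. Mettl5 relative to its neighbours ranged from -0.79 to -0.50. The cause of these shifts was not tested. Unknown depth and 3 libraries per genotype limit what could be detected.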

Other observations

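Klhl23 and Phospho2 lie next to each other, and were compared within each library after Phospho2 had been seen to be lower and Klhl23 higher in the knockout, so the values are a description with no test. Klhl23 minus Phospho2 on the log2(FPKM + 1) scale was -0.13, -0.27 and 0.12 in wild-type libraries 1, 2 and 3 and 0.30, 0.22 and 0.69 in knockout libraries 1, 2 and 3. Phospho2 exceeded Klhl23 in 2 of the 3 wild-type libraries and in none of the knockout libraries. The mean difference between the genotypes was 0.50.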
